A study of Mus musculus with 4 samples.

Results

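*Rpgrip1*, *Ctse*, *Gm47283*, *Mtus2* and *Wdfy1* are 5 of the 18695 genes counted by single-cell RNA sequencing in bone marrow of WT and *Tet2* KO mice. They were chosen from these same data because their level, and the share of cells in which they were detected, differed between genotypes in both sorts of cells and in most cell types, *Rpgrip1* being higher and the other 4 lower in *Tet2* KO. The difference itself is therefore a description, and no test of it is given. Both genotypes carried *Tet2* fl/fl alleles and both were given pI:pC, an interferon-inducing agent that switches on the Mx1 promoter, in 4 injections at 12.5 ug per g. *Tet2* KO mice carried Mx1-Cre, WT mice were littermates negative for it, and the mice were between 8 and 12 weeks old. Because Mx1 responds to interferon in many cell types, Cre was not limited to one lineage of the marrow.

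Each genotype gave 1 library of sorted granulocyte-monocyte progenitors (GMP sort) and 1 of Lin- progenitors together with CD11b+ cells (Lin-/CD11b+ sort). The table of cells names 2 mice, 1 per genotype, each of which gave both libraries of its genotype. The 2 sorts are thus not independent repeats, and a difference between genotypes cannot be told apart from a difference between the 2 mice or their preparations. The study's own sample list gives the cell numbers of the *Tet2* KO GMP and the WT Lin-/CD11b+ libraries the other way round, and the deposited table of cells was followed. By that table, the *S100a8* and *S100a9* gate described below held 1 cell in each GMP library, 158 in the WT Lin-/CD11b+ library and 189 in the *Tet2* KO one. The libraries held from 1258 to 3068 cells, with a median of 10417 to 18713 UMIs (unique molecular identifiers, 1 per captured RNA molecule) per cell, and 37 barcodes occurred in more than 1 library. Every interval below is a 95% interval and covers counting error only. Levels are counts per 1000000 UMIs of the same cells (CPM), and a log2 ratio is that of the CPM in *Tet2* KO to the CPM in WT. *Tet2* itself was at 13.02 and 16.99 CPM in the WT and *Tet2* KO GMP libraries and at 13.4 and 20.7 CPM in the Lin-/CD11b+ ones. Such counts come from the 3′ ends of transcripts, so they do not check a deletion inside the gene.

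TET2 is a dioxygenase that oxidises methylated cytosine in DNA, and loss of it is a common event in clonal haematopoiesis. The 5 genes do not belong to one pathway. RPGRIP1 is a scaffold of the connecting cilium of photoreceptors, where it binds the RPGR protein, and its loss causes inherited blindness. Cathepsin E, encoded by *Ctse*, is an aspartic protease of endosomes in immune cells and in the stomach. MTUS2 binds growing microtubule ends. WDFY1 holds WD repeats and a FYVE domain, which binds a lipid of early endosomes, and it acts as an adaptor in signalling from Toll-like receptors 3 and 4. *Gm47283* carries the name of a gene model, and no role is assigned to it here.

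The genes lie at 5 separate places in the genome (GENCODE M21 annotation, GRCm38, the build also called mm10). *Rpgrip1* is on the plus strand of chromosome 14 from 52110704 to 52163546, and *Mtus2* on the plus strand of chromosome 5 from 147957320 to 148316065. *Ctse* is on the plus strand of chromosome 1 from 131638306 to 131675505. *Wdfy1*, on the minus strand of the same chromosome from 79702262 to 79776143, starts 51.9 Mb away from it. *Gm47283* is on the plus strand of chromosome Y from 90784738 to 90816464, near the end of the chromosome. All 5 are annotated as protein coding.

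*Rpgrip1* was close to absent from the WT GMP library and present in all of the other 3, most in *Tet2* KO. It was at 0.743 CPM in WT GMPs (17 UMIs, each in a different cell) and at 34.4 CPM in *Tet2* KO GMPs (1463 UMIs). The level was 4.41 CPM in the WT Lin-/CD11b+ library and 35.5 CPM in the *Tet2* KO one. Both *Tet2* KO libraries were thus at nearly the same level, and the WT libraries differed from each other. The log2 ratio was 5.53 (4.85 to 6.32) in GMPs and 3.01 (2.72 to 3.32) in the Lin-/CD11b+ sort. A UMI of *Rpgrip1* was found in 31.4% of *Tet2* KO GMPs against 1.35% of WT GMPs, and in 25.6% against 4.57% of the Lin-/CD11b+ cells. With every cell thinned to 5000 UMIs, these shares were 13.6%, 0.397%, 13.9% and 2.39%.

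*Ctse* moved the other way. It was at 50.7 CPM in WT GMPs and 1.64 CPM in *Tet2* KO GMPs, a log2 ratio of -4.95 (-5.31 to -4.60). In the Lin-/CD11b+ sort it was at 38.4 CPM in WT and 3.12 CPM in *Tet2* KO, a log2 ratio of -3.62 (-3.93 to -3.33). Both WT libraries were high and both *Tet2* KO libraries low, without overlap of their intervals. The share of cells with a UMI went from 52.8% in WT to 2.54% in *Tet2* KO GMPs, and from 33.8% to 3.23% in the other sort. In thinned cells it was 24.2% and 1.03%, and 18.6% and 1.83%. A single cell in the *Tet2* KO GMP library held more than 1 UMI of *Ctse*, or 0.0368% of cells, against 23.4% of WT GMPs.

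*Gm47283* had nearly equal levels in both WT libraries, 24.9 and 25.4 CPM. It was at 1.55 CPM in *Tet2* KO GMPs and 2.03 CPM in *Tet2* KO Lin-/CD11b+ cells. The log2 ratios were -4.01 (-4.40 to -3.64) and -3.65 (-4.03 to -3.28). It was detected in 32.8% of WT and 2.35% of *Tet2* KO GMPs, and in 21.3% and 2.22% of the Lin-/CD11b+ cells. Gene models at this end of chromosome Y can have near-identical copies elsewhere, so the assignment of these reads to *Gm47283* is uncertain.

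*Mtus2* was a gene of few counts. It was at 7.47 CPM in WT GMPs (171 UMIs) and 1.17 CPM in *Tet2* KO GMPs (50 UMIs), and at 5.82 CPM (132 UMIs) and 0.705 CPM (24 UMIs) in the Lin-/CD11b+ sort. The log2 ratios were -2.67 (-3.15 to -2.21) and -3.04 (-3.74 to -2.41). The levels of the 2 genotypes did not overlap in either sort. Detection went from 10.3% of WT to 1.43% of *Tet2* KO GMPs and from 5.77% to 0.717% of the Lin-/CD11b+ cells.

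*Wdfy1* differed least. Its level was 19.97 CPM in WT GMPs and 6.30 CPM in *Tet2* KO GMPs, and 14.2 and 6.61 CPM in the Lin-/CD11b+ sort. The log2 ratios were -1.66 (-1.89 to -1.44) and -1.10 (-1.35 to -0.85). In contrast to *Ctse* and *Gm47283*, a clear level remained in *Tet2* KO, where 9.27% of GMPs and 6.84% of Lin-/CD11b+ cells held a UMI, against 29.0% and 14.8% in WT.

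**Figure D1:**
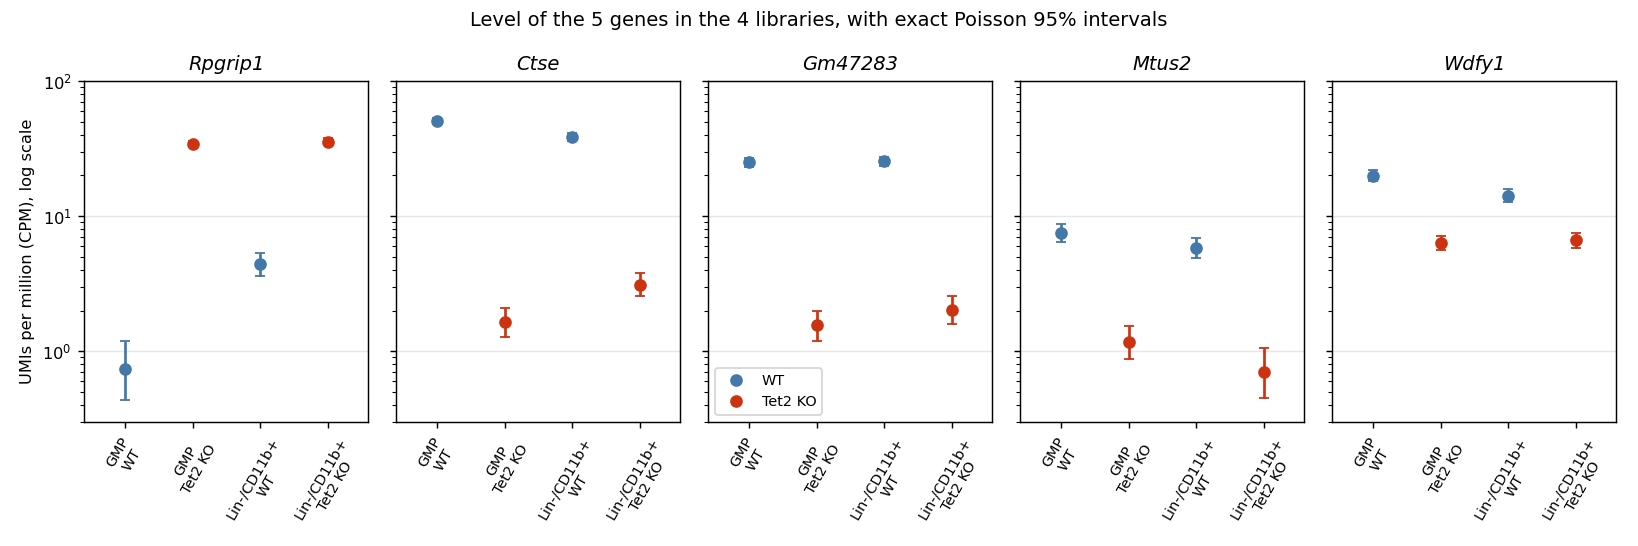
Counts per 1000000 UMIs (CPM, log axis) of each gene in the 4 libraries, blue for WT and red for *Tet2* KO, with exact Poisson 95% intervals. *Rpgrip1* is at 0.743 and 34.4 CPM in the GMP sort, and the WT Lin-/CD11b+ library lies between them at 4.41 CPM, while the other 4 genes are lower in both *Tet2* KO libraries.

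Among all genes with at least 20 UMIs in a sort, a 2-fold difference on the scale of CPM + 1 was rare, and the 5 genes were chosen for being among those that had one. In the GMP sort 0.201% of 11947 genes were at least 2-fold higher in *Tet2* KO, *Rpgrip1* at rank 1. The share at least 2-fold lower was 0.452%, with *Ctse* at rank 1, *Gm47283* at 3, *Mtus2* at 7 and *Wdfy1* at 16. In the Lin-/CD11b+ sort the shares were 0.747% higher and 0.448% lower of 12726 genes, and the ranks were 2 for *Rpgrip1*, 4 for *Ctse*, 5 for *Gm47283*, 14 for *Mtus2* and 58 for *Wdfy1*. Of 11771 genes with enough counts in both sorts, 10 (0.085%) were at least 2-fold higher in both and 12 (0.102%) at least 2-fold lower in both. *Wdfy1* is not among the 12, because its log2 ratio of CPM + 1 in the Lin-/CD11b+ sort, -0.997, fell just short of 2-fold. *Mtus2*, the nearest of the 5 inside the limit, had -1.96 and -2.00 in the GMP and Lin-/CD11b+ sorts. The rule used these contrasts, so nothing is read from the counts.

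**Figure D2:**
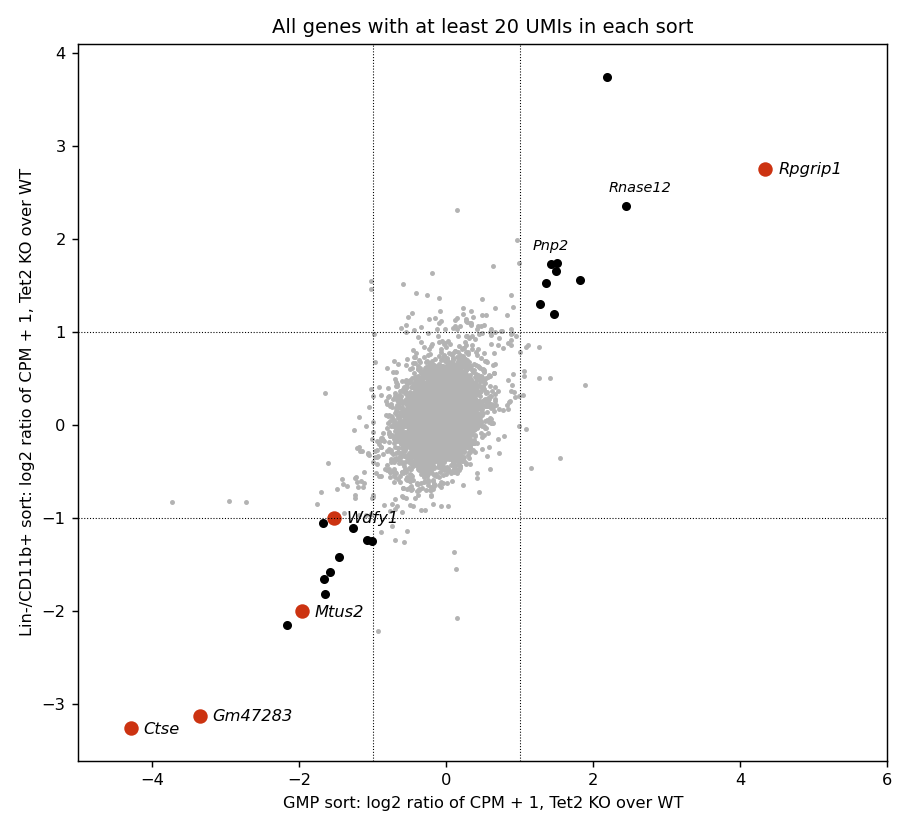
Log2 ratio of *Tet2* KO to WT in CPM + 1 in the GMP sort (x axis) and the Lin-/CD11b+ sort (y axis), for 11771 genes. Grey points are all genes, black points the others that differ at least 2-fold the same way in both sorts, red points the 5 genes, and dotted lines mark 2-fold. *Rpgrip1* stands at the upper right, *Ctse* and *Gm47283* at the lower left, and *Wdfy1* at the corner of the lower lines.

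Cells were gated on marker UMIs to describe the genes by cell type. The same gates had served to choose the genes, so the counts of gates below describe that choice and test nothing. The gates were at least 3 UMIs of *Ly86* (monocytic cells), 2 of *Cebpe* (granulocytic), 1 of *Hlf* and *Procr* together (stem and early progenitors) and 2 of *Siglech* (plasmacytoid dendritic cells), *Mcpt8* and *Prss34* together at 0.5% of UMIs or more (basophils), and *S100a8* and *S100a9* together at 5% or more (neutrophils). Markers of the class named ran higher inside the gate than outside for all 6 monocytic markers in the *Ly86* gate, all 6 plasmacytoid dendritic markers in the *Siglech* gate, all 6 basophil markers in the *Mcpt8* and *Prss34* gate and all 6 neutrophil markers in the *S100a8* and *S100a9* gate, in each library with 40 or more gated cells. In the *Cebpe* gate this held for 5 of 7 granulocytic markers in WT GMPs and for 7 of 7 in the other 3 libraries, and in the *Hlf* and *Procr* gate for 5 of 6 stem and early progenitor markers in *Tet2* KO GMPs and for 6 of 6 in the other 3. The markers include the gating genes. A cell could be in more than 1 gate, as were 132 of 158 WT and 153 of 189 *Tet2* KO cells of the *S100a8* and *S100a9* gate in the Lin-/CD11b+ sort, and 57 of 88 WT and 66 of 111 *Tet2* KO GMPs of the *Hlf* and *Procr* gate. The *Siglech* gate also held 4 of 6 monocytic markers above the other cells in WT and 5 of 6 in *Tet2* KO, and 61 of its 88 WT and 76 of its 97 *Tet2* KO cells were in another gate too. Conversely, the *Ly86* gate of the Lin-/CD11b+ sort held 6 of 6 plasmacytoid dendritic markers above the other cells in both genotypes, so it was not purely monocytic. Ratios were taken in 8 combinations of gate and sort with at least 50 cells in both genotypes.

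*Ctse*, *Gm47283* and *Mtus2* were at least 2-fold lower in *Tet2* KO in 8 of 8 combinations on the CPM scale, counting the floor of 3 counts where *Tet2* KO had none. The interval of the log2 ratio left out 0 in 8 of 8 for the first 2 genes and in 7 of 8 for *Mtus2*. *Rpgrip1* was at least 2-fold higher in 7 of 8 and *Wdfy1* at least 2-fold lower in 6 of 8. In the *Siglech* gate the intervals of both included a 2-fold difference in these directions. In the *S100a8* and *S100a9* gate that of *Wdfy1* left out a 2-fold lower level but included a 2-fold higher one. Only 1 of 11771 genes (0.0085%) was at least 2-fold higher on the CPM + 1 scale in both sorts and every gate, and it was *Ly6i*, a Ly6 family surface protein, which is not one of the 5. The 3 genes (0.0255%) at least 2-fold lower throughout were *Ctse*, *Gm47283* and *Mtus2*. As background, the share of genes at least 2-fold higher and lower on that scale was 0.39% and 0.552% in the *Ly86* gate of the GMP sort, 0.415% and 0.396% in its *Cebpe* gate and 1.5% and 2.44% in its *Hlf* and *Procr* gate. In the Lin-/CD11b+ sort it was 1.61% and 0.441% in the *Ly86* gate, 1.37% and 0.851% in the *Cebpe* gate, 3.12% and 1.37% in the *Hlf* and *Procr* gate, 2.49% and 1.99% in the *Siglech* gate and 7.88% and 1.37% in the *S100a8* and *S100a9* gate. Nothing is read from these shares either, since the gates were part of the choice.

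The exception for *Rpgrip1* was the *Siglech* gate, in which WT cells also expressed it. The level was 34.7 CPM in WT (25 UMIs in 88 cells) and 64.2 CPM in *Tet2* KO (58 UMIs in 97 cells), a log2 ratio of 0.89 (0.19 to 1.62). In the other gates of the same sort WT cells were at 1.21 CPM (*Cebpe*), 1.30 CPM (*S100a8* and *S100a9*), 4.42 CPM (*Hlf* and *Procr*) and 5.90 CPM (*Ly86*). The same held with a looser limit. The 148 WT Lin-/CD11b+ cells with at least 1 UMI of *Siglech* held 39 of the 100 *Rpgrip1* UMIs of their library and were at 28.9 CPM, whereas the remaining 1776 cells were at 2.86 CPM. Without cells holding a *Siglech* UMI, the log2 ratio in the Lin-/CD11b+ sort was 3.59 in place of 3.01. In the GMP sort 1 WT cell and no *Tet2* KO cell held a UMI of *Siglech*. In *Tet2* KO, the other gates ranged from 21.4 CPM (*S100a8* and *S100a9*) to 39.7 CPM (*Ly86*), so the *Siglech* gate had the highest level of *Rpgrip1* in both genotypes.

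**Figure D3:**
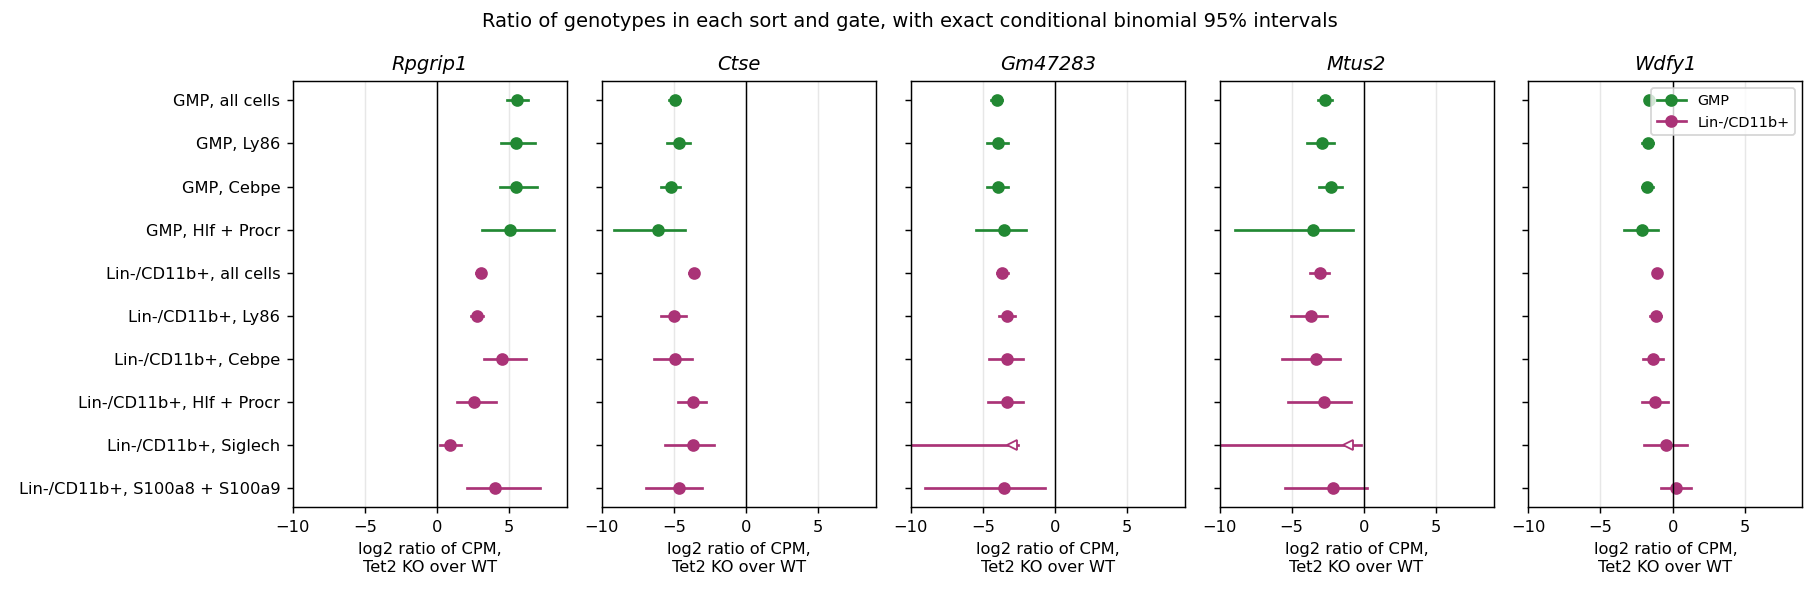
Log2 ratio of *Tet2* KO to WT CPM for each gene in all cells and in each gate of the GMP sort (green) and the Lin-/CD11b+ sort (purple), with exact conditional binomial 95% intervals. Open triangles are bounds for a *Tet2* KO count of 0, with intervals that run off the left edge. *Rpgrip1* lies right of 0 in every gate but comes nearest to it in the *Siglech* gate (0.89), and *Wdfy1* crosses 0 in the *Siglech* and the *S100a8* + *S100a9* gates.

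*Ctse* varied widely among WT cell types. Its WT level was highest in the *Mcpt8* and *Prss34* gate, with 178 CPM (143 to 219) in the GMP sort and 124 CPM (91.4 to 165) in the Lin-/CD11b+ sort, each from 42 cells. In the GMP sort the *Hlf* and *Procr* gate (71.4 CPM), the *Cebpe* gate (58.8 CPM) and the *Ly86* gate (30.0 CPM) followed. In the Lin-/CD11b+ sort the order went on with the *Siglech* gate at 57.0 CPM, the *Hlf* and *Procr* gate at 55.2 CPM, the *Cebpe* gate at 42.7 CPM, the *S100a8* and *S100a9* gate at 38.4 CPM and the *Ly86* gate at 31.6 CPM. The intervals of the *Mcpt8* and *Prss34* gate did not overlap those of any other gate of at least 40 cells in the same sort, while neighbours in the rest of the order mostly overlapped. In *Tet2* KO GMPs the *Mcpt8* and *Prss34* gate was again the highest, at 9.93 CPM (3.64 to 21.6, 6 UMIs in 51 cells), and the *Ly86*, *Cebpe* and *Hlf* and *Procr* gates lay between 1.03 and 1.60 CPM. In *Tet2* KO Lin-/CD11b+ cells the *Mcpt8* and *Prss34* gate was at 1.77 CPM (1 UMI in 60 cells). No ratio was taken there, since each WT library had fewer than 50 cells in that gate. The log2 ratios in the other gates ran from -6.12 (-9.18 to -4.23) in the *Hlf* and *Procr* gate of the GMP sort to -3.67 (-4.73 to -2.75) in the same gate of the Lin-/CD11b+ sort.

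The WT level of *Gm47283* lay between 18.7 and 31.7 CPM in the *Ly86*, *Cebpe*, *Hlf* and *Procr* and *Siglech* gates, at 12.1 and 13.2 CPM in the *Mcpt8* and *Prss34* gate, and at 5.85 CPM (9 UMIs in 158 cells) in the *S100a8* and *S100a9* gate. In the *Siglech* gate none of the 97 *Tet2* KO cells held a UMI, against 19 UMIs in 88 WT cells. With the *Tet2* KO count set to the floor of 3, the level was 7.96-fold lower, and the interval of the log2 ratio ended at -2.55. *Mtus2* had WT levels between 4.55 and 8.10 CPM in the 8 combinations. Its *Siglech* gate held 5 UMIs in WT and none in *Tet2* KO, 2.09-fold lower at the same floor. The interval of the log2 ratio ended at -0.20 and so included smaller differences. In the *S100a8* and *S100a9* gate 7 UMIs in WT stood against 2 in *Tet2* KO, and the interval of the log2 ratio, -2.16 (-5.46 to 0.23), included 0.

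*Wdfy1* was at 15.2 to 21.6 CPM in the *Ly86*, *Cebpe* and *Hlf* and *Procr* gates of both WT libraries, and at 4.63 to 7.88 CPM in those of *Tet2* KO. In the *Siglech* gate it was at 13.9 CPM in WT (10 UMIs) and 9.96 CPM in *Tet2* KO (9 UMIs), a log2 ratio of -0.48 (-1.96 to 0.97). In the *S100a8* and *S100a9* gate the values were 9.75 CPM (15 UMIs) and 11.2 CPM (22 UMIs), a log2 ratio of 0.20 (-0.81 to 1.25). At these counts a difference in either gate was not detectable. The median log2 ratio of all 6812 genes in the *S100a8* and *S100a9* gate was 0.31 on the CPM + 1 scale, against -0.06 to 0.09 in the other 7 combinations, and the part of this shift in the value of *Wdfy1* was not tested.

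**Figure D4:**
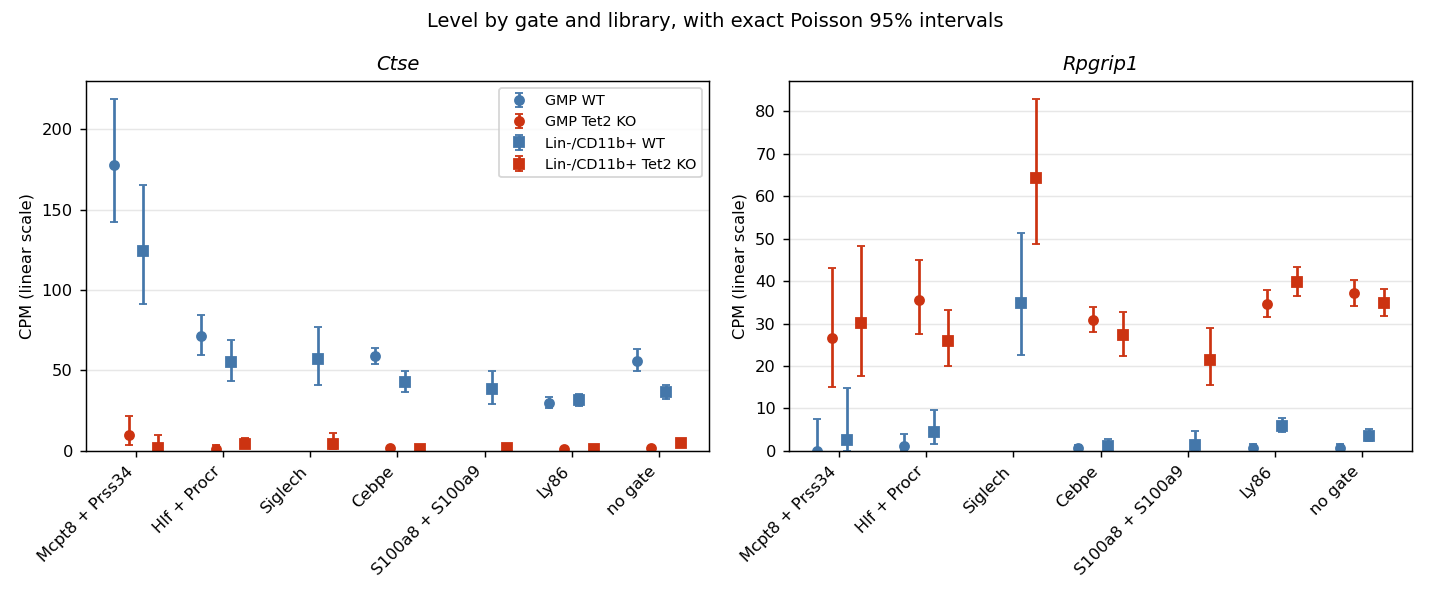
CPM (linear axis) of *Ctse* (left) and *Rpgrip1* (right) by gate, circles for the GMP sort and squares for the Lin-/CD11b+ sort, blue for WT and red for *Tet2* KO, with exact Poisson 95% intervals and gates of at least 40 cells. WT *Ctse* peaks in the *Mcpt8* + *Prss34* gate at 178 and 124 CPM, and *Rpgrip1* is highest in the *Siglech* gate in both genotypes, at 34.7 and 64.2 CPM.

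Cells of the Lin-/CD11b+ sort outside every gate held most of the *Ctse* that remained in *Tet2* KO, 73 of 106 UMIs, at 5.06 CPM. They were therefore split, after these values had been seen, by the B cell marker *Cd79a*, a chain of the B cell receptor complex. In cells with a UMI of *Cd79a* (171 in WT, 220 in *Tet2* KO), *Ctse* was at 25.5 CPM (19.5 to 32.8) in WT and 11.7 CPM (7.92 to 16.5) in *Tet2* KO. The log2 ratio of -1.13 (-1.80 to -0.48) was smaller in size than in any of the 8 combinations of gate and sort. In the ungated cells without *Cd79a*, the levels were 41.0 and 3.57 CPM, a log2 ratio of -3.52 (-4.03 to -3.04). *Rpgrip1* was at 7.53 CPM in WT and 13.5 CPM in *Tet2* KO cells with *Cd79a*, a log2 ratio of 0.85 whose interval (-0.01 to 1.75) included 0. Without *Cd79a* it was at 1.92 and 39.7 CPM, a log2 ratio of 4.37 (3.52 to 5.38). The level in *Tet2* KO thus stood lower for *Rpgrip1* and higher for *Ctse* in cells with *Cd79a* than in the ungated rest. *Gm47283* had a log2 ratio of -3.48 (-6.62 to -1.43) in cells with *Cd79a*, from 20 UMIs in WT and 2 in *Tet2* KO. For *Wdfy1* (12 and 8 UMIs) no difference was detectable there, with a log2 ratio of -0.74 (-2.24 to 0.67), and *Mtus2*, with 2 and 1 UMIs, was too low for a ratio. Median depth was 13577 UMIs in the WT and 10964 in the *Tet2* KO cells with *Cd79a*.

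In single cells of *Tet2* KO the remaining UMIs of the lowered genes were spread thinly. At least 2 of *Ctse*, *Gm47283* and *Mtus2* were detected together in 271 of 1258 WT GMPs and 212 of 1924 WT Lin-/CD11b+ cells. In *Tet2* KO this was so in 1 of 2719 GMPs and 1 of 3068 Lin-/CD11b+ cells. Independent detection would give *Ctse* and *Gm47283* together in 1.62 and 2.19 of these *Tet2* KO cells. For *Mtus2* it would give 0.990 and 0.710 with *Ctse*, and 0.918 and 0.488 with *Gm47283*. Such low counts are thus near what the low share of each gene gives. In WT cells thinned to 5000 UMIs, *Ctse* and *Gm47283* were found together in 32 GMPs, where independent detection would give 32.4, and in 40 Lin-/CD11b+ cells, where it would give 38.1. Detection of one was thus close to what independence from the other gives. No gate is known to lack these genes, so a background share from free RNA could not be read from one, and its part in the low shares of *Tet2* KO cells, and of WT cells for *Rpgrip1*, was not tested.

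Over 22 combinations of library and gate, which share cells, depth and genotype, the levels of the 4 lowered genes ran together, part of which their choice by genotype fixes. *Gm47283* and *Mtus2* were the closest pair (Pearson's r = 0.95), and *Ctse* had r = 0.89 with *Gm47283*. The gene outside the 5 most like *Ctse* and *Wdfy1* was *Xlr4a* (r = 0.86 and 0.81), a member of the X-linked lymphocyte-regulated family. *Xlr4a* went from 3.80 to 0.752 CPM in the GMP sort and from 4.28 to 0.970 CPM in the other. *Oser1* (r = 0.83) was the one most like *Gm47283*. *Rsrp1* was most like *Rpgrip1* (r = 0.89), with 91.3 and 169 CPM in WT and *Tet2* KO GMPs. Another member of the X-linked family, *Xlr*, was also among the 5 most like *Rpgrip1* (r = 0.77).

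The surroundings of each gene were compared by the 5 nearest genes with a row in the counts on each side. Of these 10 neighbours 0 were 2-fold higher or lower on the CPM + 1 scale for *Rpgrip1*, *Ctse*, *Mtus2* and *Wdfy1*, with 6 to 9 of them having enough counts. At the shares of all genes past 2-fold given above, 0 of so few says little. On the CPM scale *8430423G03Rik*, at the far end beside *Mtus2*, had log2 ratios of -1.40 (-2.21 to -0.60) and -1.13 (-2.38 to 0.07) from 24 against 34 and 11 against 16 UMIs. *2210417A02Rik*, on the same side and under the limit of 20 UMIs, had 2 UMIs in *Tet2* KO against 4 in WT GMPs and 2 against 11 in the Lin-/CD11b+ sort, log2 ratios of -1.89 (-5.36 to 0.91) and -3.04 (-6.26 to -0.85). A pair of neighbours overlap a member on the opposite strand. *Supt16*, a histone chaperone subunit whose locus overlaps *Rpgrip1* by 3133 bases, was at 83.6 and 96.6 CPM in WT and *Tet2* KO GMPs and at 68.8 and 87.1 CPM in the Lin-/CD11b+ sort, log2 ratios of 0.21 (0.13 to 0.29) and 0.34 (0.25 to 0.43). *Mrpl44*, a mitochondrial ribosome protein gene that overlaps *Wdfy1* by 126 bases, was at 55.2 and 61.7 CPM and at 38.2 and 39.5 CPM. None of the sources used here says whether counting used the strand.

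A wider window of 2 Mb on each side, chosen after the data had been seen, held no gene past 2-fold around *Ctse*, *Mtus2* or *Wdfy1*. Around *Rpgrip1* it held 5 genes at least 2-fold higher among 28 in the GMP sort (17.9%, against 0.201% of all genes). In the Lin-/CD11b+ sort it held 2 higher (6.67%, against 0.747%) and 1 lower (3.33%, against 0.448%) among 30. *Rnase12*, a member of the ribonuclease A family 1.05 Mb from the start of *Rpgrip1*, was at 0.699 and 8.29 CPM in WT and *Tet2* KO GMPs and at 0.573 and 7.05 CPM in the Lin-/CD11b+ sort. Its log2 ratios were 3.57 (2.85 to 4.39) and 3.62 (2.82 to 4.55). *Pnp2*, a purine nucleoside phosphorylase, went from 0.218 to 2.28 CPM and from 0.0882 to 2.62 CPM (5 against 97 UMIs and 2 against 89). *Ccnb1ip1*, *Gm26782* and *Ear6* were the others higher in the GMP sort, and *Rnase2a* the one lower in the Lin-/CD11b+ sort, from 28.4 to 5.35 CPM. Short of 2-fold on the CPM + 1 scale, *Ccnb1ip1* and *Gm26782* were also higher in the Lin-/CD11b+ sort. Their log2 ratios there were 1.07 (0.64 to 1.52) and 1.03 (0.65 to 1.43), and *Ear6* had 5 UMIs in *Tet2* KO and 0 in WT. On the same terms *Rnase2a* was also lower in GMPs, with a log2 ratio of -1.23 (-1.66 to -0.80). *Rnase12*, *Ear6* and *Rnase2a* are of one gene family, in which reads of close copies can be hard to assign to a single gene.

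**Figure D5:**
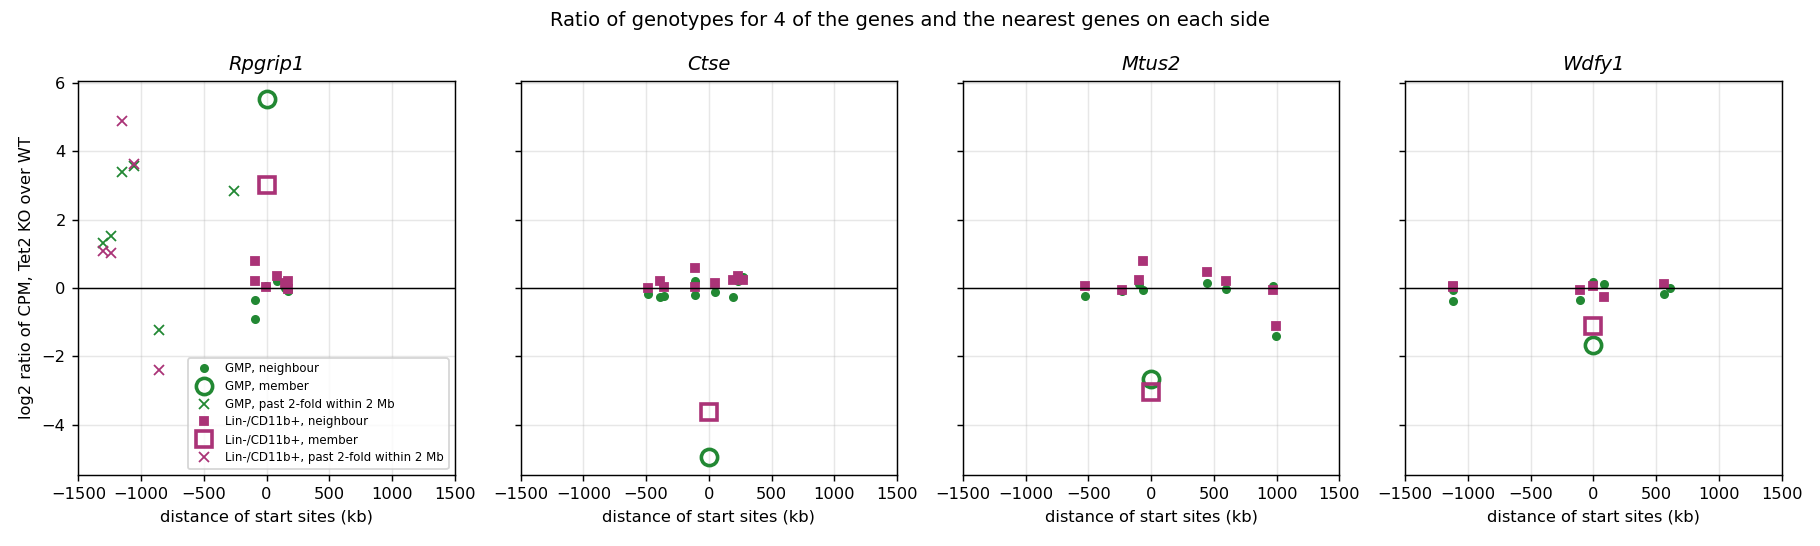
Log2 ratio of *Tet2* KO to WT CPM against the distance of start sites (kb) for those of the 5 nearest genes on each side that had enough counts, around 4 of the genes, with green circles for the GMP sort, purple squares for the Lin-/CD11b+ sort, large open symbols for the gene itself, and crosses for genes past 2-fold in either sort within 2 Mb. Most neighbours plotted lie near 0, the lowest being at -1.40 beside *Mtus2*, and the crosses left of *Rpgrip1* include *Rnase12* (3.57 and 3.62).

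For *Gm47283* the only other gene of chromosome Y with a row was *Kdm5d*, with 2 UMIs in all 4 libraries. *Xist*, the RNA that coats the inactive X chromosome of females, was at 1029 and 1058 CPM in WT and *Tet2* KO GMPs and at 1200 and 1309 CPM in the Lin-/CD11b+ sort. The list of 4 genes of the pseudoautosomal region, which X and Y share, did not hold the name *Gm47283*. Of these 4, 2 had a row under their listed names. Whether *Gm47283* is another name of a listed gene without a row, and whether it lies in the region, was not examined. Of the 4, only *Mid1*, a ubiquitin ligase gene that spans the boundary of the region, had enough counts. In GMPs it went from 2.36 to 0.282 CPM and in the Lin-/CD11b+ sort from 2.12 to 0.617 CPM, log2 ratios of -3.06 (-4.10 to -2.14) and -1.78 (-2.59 to -1.01). It was thus lower in *Tet2* KO in both sorts, as *Gm47283* was.

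Related genes were taken from lists and read beside the shares of all genes past 2-fold, 0.201% higher and 0.452% lower in the GMP sort and 0.747% and 0.448% in the Lin-/CD11b+ sort, at which 0 of a short list says little. Among 6 genes of the ciliary complexes of RPGRIP1, 0 were 2-fold higher or lower in either sort, and *Rpgrip1l*, its paralogue, had log2 ratios of -0.09 and 0.27. The gene of that list farthest from 0 was *Spata7*, with -0.66 (-0.91 to -0.40) in the Lin-/CD11b+ sort. No gene passed 2-fold either among 7 and 8 microtubule plus-end genes, among them *Mtus1*, a relative of *Mtus2* (0.09 and 0.26), or among 8 FYVE domain genes in each sort. Of 11 cathepsins and related proteases 0 passed 2-fold in the GMP sort and 1 in the Lin-/CD11b+ sort, *Ctsc*, which activates granule proteases, with log2 ratios of 0.68 (0.59 to 0.76) and 1.01 (0.93 to 1.09). *Ctss*, a protease of antigen processing, had 0.04 and 0.68 (0.62 to 0.74). *Ctsd*, the relative of cathepsin E in lysosomes, had -0.22 and -0.03. Of 6 genes of Toll-like receptor 3 and 4 signalling, *Tlr3* was past 2-fold in the Lin-/CD11b+ sort, with 15 UMIs in WT and 83 in *Tet2* KO (log2 ratio 1.88, 1.08 to 2.78). In the GMP sort *Tlr3* was lower, with 18 UMIs in WT against 7 and a log2 ratio of -2.26 (-3.76 to -0.93), short of 2-fold on the CPM + 1 scale. The medians of these lists lay between -0.07 and 0.32 on the CPM + 1 scale, beside -0.05 and 0.08 over all genes of the 2 sorts.

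RefSeq promoter sequences (GRCm38.p6, 250 bases before to 50 after a start site) were matched for 2 of the 5 genes. Counted as the dinucleotide CG, the promoter of *Rpgrip1* held 3 CpG sites, and 31.4% of 32851 promoters held as few or fewer. Its RefSeq start lies within the GENCODE gene, so this window overlaps the annotated gene in part. Those of *Mtus2* held 28 at the first start site, where 14.2% of promoters held as many or more, and 17 at the second, where 31.4% did. The median promoter held 7. DNA methylation was not measured in these libraries.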

How the data were processed

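Members and gene lists were chosen with earlier results of these data known. The authors deposited unnormalised UMI counts for each gene in each cell, made with Cell Ranger 3.1.0, Seurat and mm10 per the submitters' processing notes. The methods state under 5% mitochondrial counts, yet 413 of the 8969 deposited cells had more or as much, and they were kept, as were doublets. The reagent kit is named differently in the methods and in the series text. UMIs were summed per library and gate, with exact Poisson, binomial and conditional binomial intervals. With 1 library per group no test was made. A count of 0 was set to a floor of 3 counts over the gate. Calls used genes with at least 20 UMIs per sort and 2-fold on CPM + 1. The genes named were the 5 members, for each the 5 most like it among genes with at least 100 UMIs, the 10 neighbours, the 10 largest in each direction in both sorts and the lists, of which those a statement needed are given. Interval coverage was tested on simulated data. Python 3.11.15, numpy 2.4.6, scipy 1.17.1, pandas 2.3.3, matplotlib 3.10.9 and edgeR 4.0.16 (TMM factors) in R 4.3.3 were used. Of 18695 symbols, 18426 matched 1 gene of the annotation. Some genes are not reported here.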

Additional observations from a re-analysis of the deposited data

Results flagged for a closer look

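The log2 ratio of *Wdfy1* in the *S100a8* and *S100a9* gate of the Lin-/CD11b+ sort, 0.20 (-0.81 to 1.25), stood on the other side of 0 from the 7 other combinations of gate and sort, which ran from -2.11 to -0.48. It rests on 15 UMIs in WT and 22 in *Tet2* KO, and the difference from the other gates was not tested.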

How the results depend on the processing

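No paired analysis was possible because each group had a single library and the groups share 1 replicate number, so no replicate could be left out either. TMM factors, the mean over cells and leaving out cells with 5% or more mitochondrial counts or the 5% of cells with most UMIs moved none of the log2 ratios of the 2 sorts beyond their intervals. Gates with under 50 cells after a stricter limit gave no value, as in the *Siglech* and the *Hlf* and *Procr* gates. The floor of 3 counts enters some thinned ratios, as given below, and the cause of the other movements was not tested. On the CPM + 1 scale, which understates changes of low genes by construction, the log2 ratios were 4.34 for *Rpgrip1*, -4.29 for *Ctse*, -3.35 for *Gm47283* and -1.96 for *Mtus2* in the GMP sort, and -3.26 for *Ctse*, -3.12 for *Gm47283* and -2.00 for *Mtus2* in the Lin-/CD11b+ sort. In ungated cells of that sort *Ctse* was at -2.85 and *Gm47283* at -4.15. *Rpgrip1* was at 3.59 without cells with a *Siglech* UMI, an alternative chosen after seeing the data.

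With cells thinned to 5000 UMIs, *Rpgrip1* was at 2.70 in the Lin-/CD11b+ sort and *Mtus2* at -2.11 in the GMP sort. Thinned ratios in gates of the GMP sort were 1.67 for *Rpgrip1*, -1.07 for *Gm47283*, -0.33 for *Mtus2* and -4.14 for *Wdfy1* with *Hlf* and *Procr*, and for *Gm47283* -3.17 with *Ly86* and -3.15 with *Cebpe*. In the Lin-/CD11b+ sort they were -6.59 for *Ctse* with *Ly86*, -2.36 for *Gm47283* with *Siglech* and -0.62 for *Wdfy1* with *S100a8* and *S100a9*, the last a reversal from 0.20. For 1.67 no thinned WT cell held *Rpgrip1*, and for -1.07 and -2.36 no thinned *Tet2* KO cell held *Gm47283*. These values rest on the floor of 3 counts. For -0.33 the thinned shares with *Mtus2* were 1.14% in WT and 0.901% in *Tet2* KO. For -4.14 the share with *Wdfy1* was 0.901% in *Tet2* KO, so both rest on very few cells. Stricter gates gave 3.40 for *Rpgrip1* with *Ly86* and -4.91 for *Gm47283* with *Cebpe* in the Lin-/CD11b+ sort, and -2.16 for *Wdfy1* with *Ly86* in the GMP sort. Cells in exactly 1 gate gave 3.19 for *Rpgrip1* with *Ly86* and -2.24 for *Wdfy1* with *Cebpe*, both in the Lin-/CD11b+ sort.

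Shares of cells with a UMI are lower in thinned cells, and with 2 UMIs required, by construction. In the order WT GMP, *Tet2* KO GMP, WT Lin-/CD11b+ and *Tet2* KO Lin-/CD11b+, thinned shares were 0.397%, 13.6%, 2.39% and 13.9% for *Rpgrip1*, 24.2%, 1.03%, 18.6% and 1.83% for *Ctse*, 10.7%, 0.883%, 10.7% and 0.913% for *Gm47283*, and 9.38%, 3.35%, 6.86% and 3.03% for *Wdfy1*. For *Mtus2* they were 2.94%, 0.662% and 3.01% in the first 3 libraries. Shares with at least 2 UMIs were 0.0%, 11.8%, 0.572% and 8.12% for *Rpgrip1*, 23.4%, 0.0368%, 8.32% and 0.228% for *Ctse*, 9.14%, 0.0368%, 5.61% and 0.0326% for *Gm47283*, 2.94%, 0.405%, 1.04% and 0.0652% for *Mtus2*, and 6.04%, 0.588%, 1.87% and 0.456% for *Wdfy1*. The higher genotype was the same as in all cells in each.

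With an offset of 10 CPM, 3 genes were at least 2-fold higher and 10 lower in the GMP sort, 12 higher and 11 lower in the Lin-/CD11b+ sort, and 0 higher and 1 lower in both sorts and every gate. With stricter gates, 5 genes were higher and 5 lower in both sorts and every gate that kept 50 cells, which left 5 of the 8 combinations, so these counts cover fewer gates than the main ones.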
